A study of Mus musculus with 137 samples.

Results

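The 10 genes described here act on maternal mRNA, the RNA that the oocyte stores and the early embryo translates and then clears: Btg4, Cnot7, Cnot8, Cnot6l and Zfp36l2 in deadenylation, Pabpc1l and Pabpn1l in poly(A) binding, Ybx2 and Cpeb1 in mRNA storage and translation, and Dcp1a in decapping. They were chosen by name, for their known roles, from the 36097 genes that the count table of the series covers. Estimated counts of their 70 annotated transcript entries were summed by gene, and all 10 were among the 14507 genes that passed the filter on low counts and were tested. The libraries are poly(A) RNA profiles of single 2-cell mouse embryos of the B6129F1 cross, made by SmartSeq2, a method that copies full-length cDNA from an oligo-dT primer. By the labels, SR1848 with NR5A2 mRNA is the group of 67 of the 137 embryos (experiment 1 holds 27 of them and experiment 2 the other 40), SR1848 that of 41 (17 and 24) and DMSO that of 29 (19 and 10). All groups were collected as zygotes 5 h after fertilization and cultured from 6 h on in KSOM medium with no oil over it. The first group was kept in 10 µM SR1848, which inhibits the nuclear receptor NR5A2, and was injected with NR5A2 mRNA (500 ng/µl). The second was kept in 10 µM SR1848 alone and the third in 0.1% DMSO, the solvent. By its title, the series concerns how NR5A2 takes part in zygotic genome activation. The labels give no group injected without NR5A2 mRNA, so the injection and NR5A2 cannot be told apart.

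A growing oocyte makes and stores mRNA, stops transcription, and relies on those stores until the zygotic genome is read. Many stored mRNAs have short poly(A) tails and are kept silent by proteins such as YBX2. During maturation of the oocyte, CPEB1 on U-rich elements of the 3′ UTR directs tail lengthening and translation of selected mRNAs. BTG4 and RNA-binding proteins such as ZFP36L2 bring the CCR4-NOT deadenylase to maternal mRNAs, the tail is removed, and decapping and exonuclease digestion follow. The mRNAs of many of these decay factors are themselves maternal and disappear as the embryo proceeds through the 2-cell stage.

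Some libraries stood apart or went against their labels, and every group is therefore called by its label. Depth ranged from 100513 to 9250470 counts (median 4631700). A library is called low here when its depth was less than 1 in 5 of that median, or its detected genes less than 1 in 2 of theirs, which 7 libraries met: NR5A2 mRNA 22 of experiment 1 and 27 and 40 of experiment 2, SR1848 8 of experiment 1, and DMSO 6, 13 and 16 of experiment 1. In experiment 2, the 8 libraries labelled SR1848 with NR5A2 mRNA 1 to 8 had 82.1, 109 and 156 CPM of Nr5a2 (lowest, median and highest; CPM is a gene's counts scaled to a fixed library total), and the 8 labelled DMSO 1 to 8 had 88.9, 2281 and 5474 CPM. Elsewhere the median was 2469 CPM in NR5A2 mRNA embryos of experiment 1, 3136 CPM in the other NR5A2 mRNA embryos of experiment 2, 13.3 CPM in SR1848 embryos and 109 CPM in DMSO embryos of experiment 1. These 16 libraries stayed in under their labels, and each main result is given with and without them. Of the 56 NR5A2 mRNA embryos that are neither low nor among the 16, 14 (9 in experiment 1 and 5 in experiment 2) had 5.40 to 97.6 CPM of Nr5a2 and 0 to 71.2 CPM of GFP, and the other 42 had 1706 to 8612 CPM of Nr5a2 and 1439 to 10447 CPM of GFP. The 14 also stayed in under their labels, and the counts of calls with NR5A2 mRNA are given without them too. "Without the 23" leaves out the 16 and the 7 low libraries, with 56 NR5A2 mRNA, 40 SR1848 and 18 DMSO embryos remaining, and "without the 37" leaves out the 14 as well. Summed CPM of 5 transcripts of the 2-cell stage (Zscan4c, Zscan4d, Zscan4f, Tcstv1 and Tcstv3) without the 23 ran from 0.622 to 5384 CPM in NR5A2 mRNA embryos, from 83.6 to 1828 CPM in SR1848 embryos and from 47.1 to 251 CPM in DMSO embryos. Over all libraries, 12 markers of cumulus and granulosa cells summed to medians of 25.8, 15.6 and 78.9 CPM in NR5A2 mRNA, SR1848 and DMSO embryos, with 6, 6 and 7 of them at a median of 0. The 7 markers of blood and epithelium summed to medians of 230.2, 50.2 and 199.7 CPM, with 3 at a median of 0 in each group, and the 7 markers of spermatids to 6.22, 6.12 and 1.64 CPM, with 4 at a median of 0 in each. The part of these other transcripts in the results was not tested.

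The 3′ ends of the transcripts show which of these mRNAs carry the element that CPEB1 binds. The letters TTTTAT or TTTTAAT, a cytoplasmic polyadenylation element, were sought on the sense strand in the last 100 bases of the most abundant transcript of each gene. They were found in 4 of the 10 genes, against 17.1% of 14496 tested genes: Btg4 (67 bases from the start of the motif to the end of the transcript), Ybx2 (33 bases), Cnot8 (38 bases) and Dcp1a (43 and 67 bases). A poly(A) signal, AATAAA or ATTAAA, was found in 8 of the 10, all but Btg4 and Ybx2, and in 72.5% of the 14496 genes. The 30 bases around the element are shown for the 4 genes that hold one, and beside them those around the poly(A) signal of Cnot7 and Pabpc1l, whose windows hold none of the CPEB1-type letters. Capitals mark the cytoplasmic polyadenylation element and the poly(A) signal. In Dcp1a the pair overlap, and in Cnot8 they lie apart. All are exonic, at the end of the 3′ UTR, read 5′ to 3′ on the strand of the gene from the GENCODE M21 transcripts (GRCm38).
Btg4-201: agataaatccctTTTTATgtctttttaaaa
Ybx2-205: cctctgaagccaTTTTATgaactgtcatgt
Cnot8-201: tatgtTTTTAATtttgtaaAATAAAgattg
Dcp1a-201: aaatatatttTTTTAATAAAatttcaaaac
Cnot7-203: aaagcttttgtaAATAAAggcttcaaaaat
Pabpc1l-201: tttgctttatatATTAAAaaatgctgcaaa
Of the 4 genes with a cytoplasmic polyadenylation element, Btg4, Ybx2 and Dcp1a were higher in SR1848 embryos than in DMSO embryos and Cnot8 did not pass the test, as given below. All members without such a match in the window were also called higher there, as were 33.1% of all genes tested, so a match did not set the higher members apart. A TGTANATA motif, the letters that PUF proteins bind, was found in Cnot7 and Cnot8 (2 of 10, and 4.53% of all genes), and TATTTAT, an AU-rich core of the kind ZFP36-family proteins bind, in Cnot8 alone of the 10 (3.90% of all genes). The letters CAAGGNCA, a motif for NR5A-type receptors sought on both strands, were in none of 14 RefSeq promoters (GRCm38.p6, 250 bases before to 50 after the start site) of 8 of the genes, and in 6.71% of 32851 promoters. Cnot7 and Zfp36l2 were not matched in the promoter table.

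Counts per library show the order of abundance once they are divided by transcript length. Without the 23, median levels in TPM (the share of transcripts after division by annotated length) in NR5A2 mRNA embryos were 1997 for Btg4, 820.4 for Cnot7, 217 for Cnot8, 194 for Dcp1a, 103.6 for Cnot6l, 85.3 for Cpeb1, 79.5 for Ybx2, 31.0 for Pabpc1l, 16.6 for Pabpn1l and 4.15 for Zfp36l2. In SR1848 embryos the medians were 3555 TPM for Btg4, 1156 for Cnot7, 494 for Dcp1a, 259 for Cnot8, 167 for Cnot6l, 121 for Cpeb1, 102 for Ybx2, 93.1 for Pabpc1l, 22.2 for Pabpn1l and 4.86 for Zfp36l2. In DMSO embryos Cnot8 led at 468 TPM, followed by Btg4 at 423, Cnot7 at 329.5, Dcp1a at 54.7, Cpeb1 at 31.6, Cnot6l at 31.2, Ybx2 at 11.6, Pabpn1l at 7.35, Pabpc1l at 4.28 and Zfp36l2 at 0.788.  Btg4 thus had the highest median in NR5A2 mRNA and SR1848 embryos and Cnot8 in DMSO embryos. Ranges of neighbours in this order overlapped in each group (Cnot8 334.8 to 696 TPM and Btg4 128 to 862 TPM in DMSO embryos), except for Cnot7 (200.4 to 474 TPM) and Dcp1a (27.2 to 106 TPM) in DMSO embryos. Together the 10 genes took a median of 0.382% of counts in NR5A2 mRNA embryos (range 0.157% to 0.840%), 0.594% in SR1848 embryos (0.369% to 0.992%) and 0.162% in DMSO embryos (0.112% to 0.256%) without the 23. Priming was on poly(A), so a level combines the amount of an mRNA and how well its tail was captured, which cannot be told apart. A library holds 1 whole embryo, so fewer cells and less RNA per cell cannot be told apart either.

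**Figure D1:**
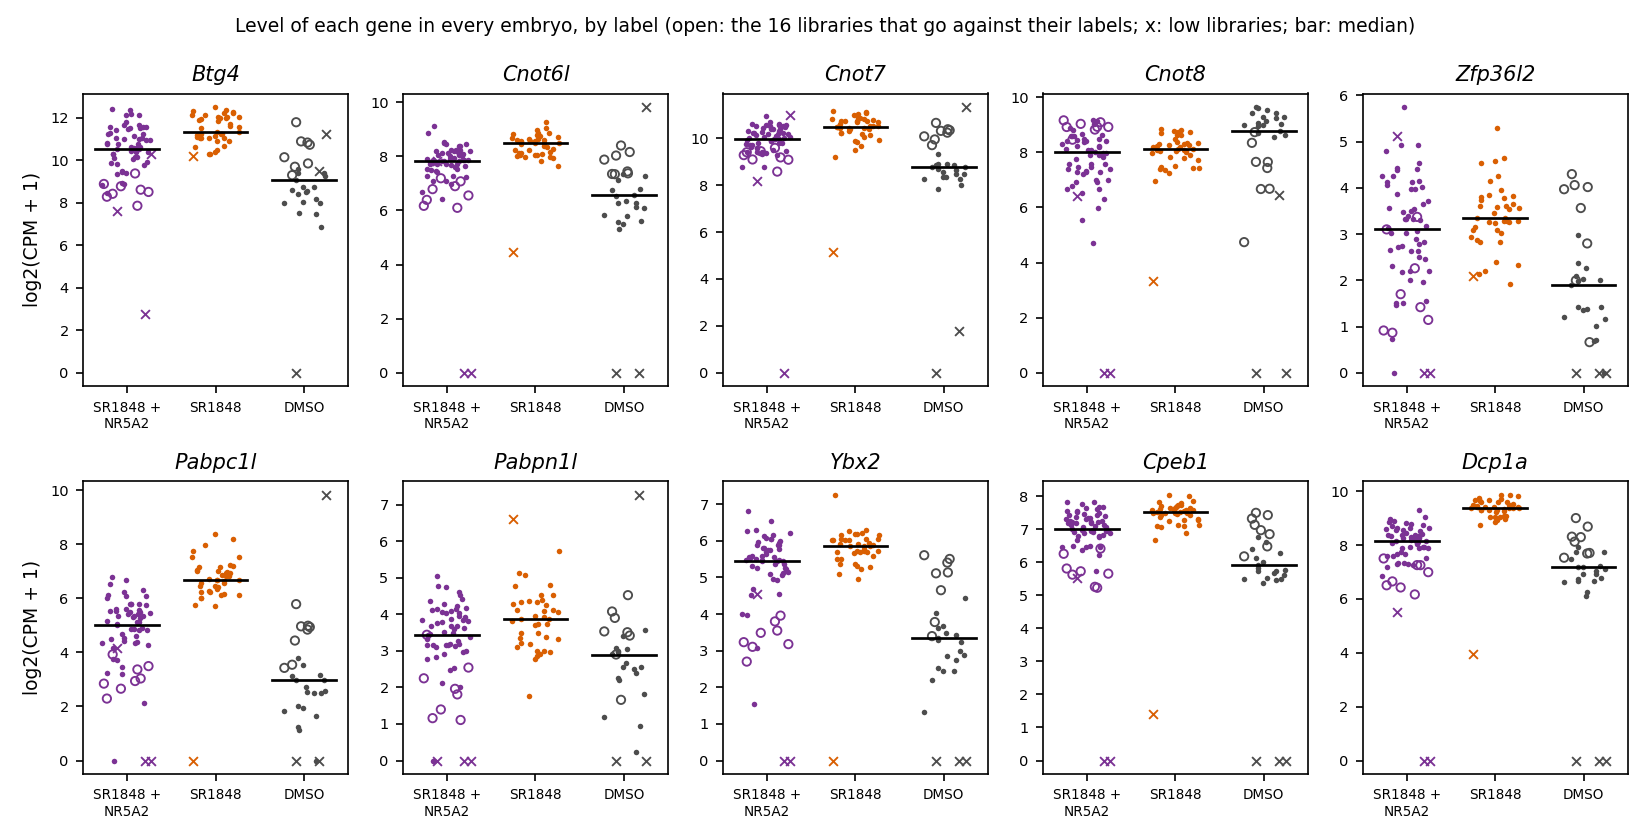
Levels of the 10 genes in each embryo, as log2(CPM + 1), for embryos labelled SR1848 with NR5A2 mRNA, SR1848 and DMSO. Points are embryos (open circles the 16 libraries that go against their labels, crosses the 7 low libraries) and bars are group medians; the SR1848 median of Btg4 (2553 CPM) lies above the NR5A2 mRNA median (1466 CPM) and the DMSO median (539.6 CPM), and that of Cnot8 (274 CPM) below the DMSO median (431 CPM).

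SR1848 against DMSO asks how the inhibitor, at a stage when maternal mRNA is being cleared, went with the mRNAs of the decay machinery. In SR1848 embryos 9 of the 10 genes were higher than in DMSO embryos and Cnot8 did not pass the test (edgeR quasi-likelihood test on TMM-scaled counts with experiment as a term, Benjamini-Hochberg adjustment over all 14507 genes, threshold 0.05). Over all genes, 33.1% were called higher and 36% lower. The median log2 fold change of the 10 was 1.36, against −0.053 over all genes tested. Without the 16 libraries 9 were again higher (background 41.5%), and without the 23 the 9 were higher and Cnot8 was lower (background 37.7% higher and 39% lower). Counts of direction depend on what is held constant. When libraries were scaled to 60 oocyte transcripts that hold none of the 10, the median log2 fold change of all genes was −1.75, and 3 members were higher (Btg4 0.68, Ybx2 0.74 and Dcp1a 0.49), 2 were lower (Cnot7 −0.35 and Cnot8 −2.54) and 5 passed in neither direction, against 4.85% of all genes higher and 69.2% lower. All but Cnot8 lay above that median of all genes, the lowest being Pabpn1l at −0.63. Under the TMM scaling of the main test, 50 of 59 tested genes of that oocyte list were themselves higher and 3 lower in SR1848 embryos. Scaled to mitochondrial mRNAs without the 23, the 9 were higher and Cnot8 lower, with 32.5% of all genes higher, 42.4% lower and a median of −0.29.

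Adding NR5A2 mRNA to SR1848 went with lower levels of 7 of the 10 genes: Btg4, Cnot6l, Cnot7, Pabpc1l, Pabpn1l, Cpeb1 and Dcp1a. None was higher, and Cnot8, Zfp36l2 and Ybx2 did not pass. Over all genes 29.5% were called higher and 12.9% lower, and the median log2 fold change was −0.55 over the 10 and 0.091 over all genes tested. Without the 16 libraries 4 remained lower (Btg4, Cnot6l, Pabpc1l and Dcp1a; background 12.4%), and without the 23 6 were lower (the 7 less Pabpn1l; background 14.8%). Without the 37, 7 were lower (those 6 and Cnot8, at −0.50 with an adjusted p of 0.000633 by edgeR; background 18.1%). The comparison is made with the same SR1848 embryos as the one against DMSO, so opposite signs in the pair are not independent. Scaled to oocyte transcripts, the median of all genes was 0.92 and 3 members were lower (Btg4, Pabpc1l and Dcp1a) and 2 higher (Cnot8 and Zfp36l2), against 2.7% and 63.3% of all genes; scaled to mitochondrial mRNAs without the 23, all 10 were lower, with 46% of all genes lower and a median of −0.48.

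NR5A2 mRNA against DMSO asks how far the genes stood from solvent alone when inhibitor and NR5A2 mRNA were both present. Here 7 of the 10 were higher in NR5A2 mRNA embryos, none was lower, and Cnot8, Pabpc1l and Pabpn1l did not pass. Over all genes 30.8% were called higher and 25.8% lower, and the median log2 fold change was 0.78 over the 10 and 0.22 over all genes. Without the 16 libraries 8 were higher and Cnot8 was lower (background 44% higher and 29.8% lower), and without the 23 9 were higher and Cnot8 lower (42.5% and 34.6%), as they were without the 37 (43.3% and 36.6%). Scaled to oocyte transcripts, 1 member was higher (Ybx2) and 3 were lower (Cnot8, Pabpn1l and Pabpc1l), against 6.44% and 47.3% of all genes, with a median of −0.69. In experiment 2 taken alone as labelled, edgeR called 0 of 15266 genes, with 349 at an unadjusted p under 0.05. DESeq2 was not run on that subset, and 8 of its 10 DMSO libraries and 8 of its 40 NR5A2 mRNA libraries are among the 16.

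The experiments differed in how many of the 10 passed. For SR1848 against DMSO, experiment 1 alone had 9 of the 10 higher (background 36.3%) and Cnot8 lower, and experiment 2 alone, as labelled, had 5 of the 10 higher (background 4.61%): Btg4, Cnot6l, Pabpc1l, Ybx2 and Dcp1a. For NR5A2 mRNA against SR1848, 2 of the 10 were lower in experiment 1 alone (Pabpc1l and Dcp1a; background 5.1%) and 7 in experiment 2 alone (background 11.1%). Experiment 2 without the 16 had 7 of the 10 higher in SR1848 against DMSO, as were 2148 of 18665 genes. It had 5 of the 10 lower in NR5A2 mRNA against SR1848, as were 1608 of 18665 genes. A group by experiment term passed for 5 of the 10 in SR1848 against DMSO (Btg4, Zfp36l2, Pabpn1l, Ybx2 and Dcp1a), as it did for 30.3% of all genes. With the 7 low libraries alone left out it passed for all 10, and for 41.7% of all genes. Without the 16 libraries it passed for none of the 10 and for 0.181% of all genes, and without the 23 for none and 0.00662%. Only 2 DMSO embryos of experiment 2 remain in either set. The SE of the difference without the 16 was 0.77 to 1.60 for the 10, so a difference of the size seen as labelled could be missed there. Without the 23 the SE was 0.31 to 0.83. The differences of the 5 genes that passed as labelled were then 0.14 ± 0.64 (SE) for Btg4 and −0.36 ± 0.83 for Zfp36l2. They were −0.82 ± 0.73 for Pabpn1l, 0.0051 ± 0.48 for Ybx2 and −0.15 ± 0.38 for Dcp1a. In NR5A2 mRNA against SR1848 none of the 10 passed, against 4.58% of all genes.

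**Figure D2:**
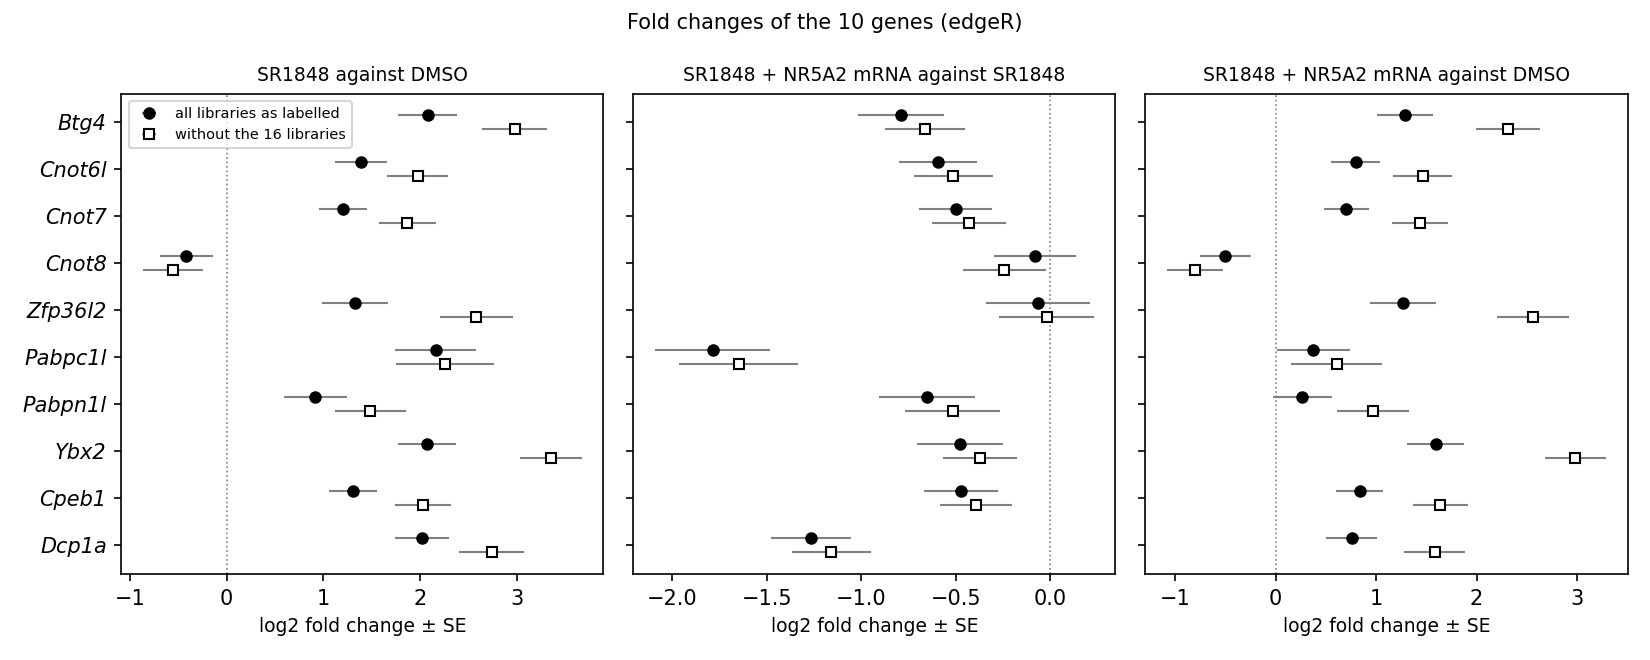
Log2 fold changes of the 10 genes in 3 comparisons, with bars of 1 SE from edgeR, for all libraries as labelled (filled circles) and without the 16 libraries that go against their labels (open squares). Under the TMM scaling shown, SR1848 against DMSO runs from −0.42 for Cnot8 to 2.16 for Pabpc1l as labelled; scaled to oocyte transcripts, Cnot6l, Cnot7, Zfp36l2, Pabpn1l and Cpeb1 turn below 0 there.

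Btg4, Cnot7, Cnot8 and Cnot6l are the adaptor and the catalytic subunits of CCR4-NOT. Btg4 (ENSMUSG00000032056, chromosome 9, 51060901 to 51119875, plus strand; GRCm38 throughout) encodes the oocyte and embryo member of the BTG/TOB family, which binds the CAF1 subunits of CCR4-NOT and is needed for maternal mRNA decay. Btg4 had 5.70, 1466 and 5506 CPM (lowest, median and highest) in NR5A2 mRNA embryos, 1187, 2553 and 5853 CPM in SR1848 embryos and 0, 539.6 and 3538 CPM in DMSO embryos. All 41 SR1848 embryos lay above the DMSO median, and without the 23 all 40 lay above the highest DMSO embryo (770.1 CPM), a separation that 5% of all tested genes showed in that direction. The log2 fold change was 2.08 ± 0.31 (SE, adjusted p = 2.67e-09) for SR1848 against DMSO and 2.98 (adjusted p = 1.46e-13) without the 16. For NR5A2 mRNA against SR1848 it was −0.79 ± 0.23 (SE, adjusted p = 0.00270), with 52 of 67 embryos below the SR1848 median, and for NR5A2 mRNA against DMSO 1.29 ± 0.28 (SE, adjusted p = 8.91e-05). Fitted alone, experiment 1 gave 2.75 and experiment 2 gave 1.26 for SR1848 against DMSO, and 3.04 in experiment 2 without the 16, which leaves 2 DMSO embryos there. The highest DMSO library was DMSO 1 of experiment 2, a library of the 16.

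Cnot7 and Cnot8 encode the paralogous CAF1 deadenylases, of which a CCR4-NOT complex holds either. Cnot7 (ENSMUSG00000031601, chromosome 8, 40492540 to 40515847, minus strand) was higher in SR1848 embryos and Cnot8 was not. Cnot7 had 0, 1008 and 2029.7 CPM (lowest, median and highest) in NR5A2 mRNA embryos, 34.2, 1444 and 2321 CPM in SR1848 embryos and 0, 442 and 2593 CPM in DMSO embryos. Of the 41 SR1848 embryos 40 lay above the DMSO median, and without the 23 39 of 40 lay above the highest DMSO embryo (645 CPM). Its log2 fold change was 1.20 ± 0.25 (SE, adjusted p = 9.38e-06) for SR1848 against DMSO, −0.50 ± 0.19 (SE, adjusted p = 0.0262) for NR5A2 mRNA against SR1848 and 0.70 ± 0.22 (SE, adjusted p = 0.00577) for NR5A2 mRNA against DMSO; without the 16 the second was −0.43 (adjusted p = 0.0751). Within experiments, SR1848 against DMSO gave 1.63 in experiment 1 and 0.58 (adjusted p = 0.177) in experiment 2 as labelled, which was 1.76 (adjusted p = 0.0486) without the 16.

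Cnot8 (ENSMUSG00000020515, chromosome 11, 58104153 to 58118594, plus strand) ran the other way or did not pass. Cnot8 had 0, 255 and 579 CPM (lowest, median and highest) in NR5A2 mRNA embryos, 8.97, 274 and 463 CPM in SR1848 embryos and 0, 431 and 803 CPM in DMSO embryos. The 38 of 41 SR1848 embryos below the DMSO median became 40 of 40 without the 23, of which 32 lay below the lowest DMSO embryo (379 CPM). Medians without the 23 were 243 CPM in NR5A2 mRNA embryos, 275 CPM in SR1848 embryos and 553 CPM in DMSO embryos. For SR1848 against DMSO its log2 fold change was −0.42 ± 0.28 (SE, adjusted p = 0.170) as labelled and −0.86 (adjusted p = 2.2e-05) without the 23. For NR5A2 mRNA against SR1848 it was −0.081 ± 0.22 (SE, adjusted p = 0.798), and for NR5A2 mRNA against DMSO −0.50 ± 0.25 (SE, adjusted p = 0.0788), the last being −0.80 (adjusted p = 0.00781) without the 16. Experiment 1 alone gave −0.88 (adjusted p = 0.0479) for SR1848 against DMSO and experiment 2 alone, as labelled, 0.33 (adjusted p = 0.540). In the fit with a group by experiment term, the experiment 2 value was 0.33 as labelled and −0.35 without the 16, which leaves 2 DMSO embryos there.

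Cnot6l encodes the CCR4-type deadenylase of the complex that prevails in mouse oocytes (ENSMUSG00000034724, chromosome 5, 96070333 to 96164171, minus strand). Cnot6l had 0, 225 and 552 CPM (lowest, median and highest) in NR5A2 mRNA embryos, 21.2, 356 and 610.1 CPM in SR1848 embryos and 0, 94.3 and 909 CPM in DMSO embryos. Without the 23 the SR1848 and DMSO embryos did not overlap, with SR1848 embryos at 198 to 610.1 CPM and DMSO embryos at 38.5 to 163 CPM. Its log2 fold change was 1.39 ± 0.27 (SE, adjusted p = 2.55e-06) for SR1848 against DMSO, with 40 of 41 embryos above the DMSO median. It was −0.59 ± 0.21 (SE, adjusted p = 0.0134) for NR5A2 mRNA against SR1848, with 64 of 67 embryos below the SR1848 median, and 0.80 ± 0.24 (SE, adjusted p = 0.00376) for NR5A2 mRNA against DMSO. Of its summed CPM in DMSO embryos, 21.7% came from DMSO 13 of experiment 1, a low library, and without that library the first value was 1.59. Experiments 1 and 2 fitted alone gave 1.48 and 0.99 for SR1848 against DMSO, and −0.086 (adjusted p = 0.916) and −0.96 (adjusted p = 6.8e-05) for NR5A2 mRNA against SR1848.

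Zfp36l2 encodes a zinc-finger protein that binds AU-rich elements and brings CCR4-NOT to its targets (ENSMUSG00000045817, chromosome 17, 84183931 to 84187947, minus strand). It was the least abundant of the 10, with a median of 33 counts in a library. Zfp36l2 had 0, 7.57 and 52.8 CPM (lowest, median and highest) in NR5A2 mRNA embryos, 2.78, 9.17 and 38.0 CPM in SR1848 embryos and 0, 2.71 and 18.6 CPM in DMSO embryos. All 41 SR1848 embryos were above the DMSO median, while 31 of 40 were above the highest DMSO embryo (6.94 CPM) without the 23. On the log2 scale the fold change was 1.33 ± 0.34 (SE, adjusted p = 0.000421) for SR1848 against DMSO and 1.26 ± 0.33 (SE, adjusted p = 0.000839) for NR5A2 mRNA against DMSO. Between NR5A2 mRNA and SR1848 embryos it was −0.062 ± 0.28 (SE, adjusted p = 0.881), with 40 of 67 embryos below the SR1848 median, so a difference was not detected. The signs differed by experiment in the fit with a group by experiment term, with 0.59 in experiment 1 and −0.65 in experiment 2. Their difference of −1.24 ± 0.50 (SE) did not pass (adjusted p = 0.163 by edgeR). Experiment 1 alone gave 2.27 for SR1848 against DMSO and experiment 2 alone 0.42 (adjusted p = 0.552), and 1.69 (adjusted p = 0.164) without the 16.

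Pabpc1l and Pabpn1l act on the poly(A) tail. Pabpc1l encodes the embryonic cytoplasmic poly(A)-binding protein (ePAB), which replaces PABPC1 in oocytes and is needed for translation of maternal mRNAs (ENSMUSG00000054582, chromosome 2, 164025450 to 164050538, plus strand). Pabpc1l had 0, 31.0 and 110.3 CPM (lowest, median and highest) in NR5A2 mRNA embryos, 0, 103 and 332 CPM in SR1848 embryos and 0, 6.91 and 918 CPM in DMSO embryos. The highest DMSO value came from DMSO 13 of experiment 1, a low library with 305 counts of the gene, which held 75.1% of the summed Pabpc1l CPM in DMSO embryos. Without the 23, NR5A2 mRNA embryos had 0 to 110.3 CPM, SR1848 embryos 52.0 to 332 CPM and DMSO embryos 0 to 12.8 CPM. SR1848 embryos then lay wholly above DMSO embryos, with a median 22.0 times theirs, and 42 of 56 NR5A2 mRNA embryos lay below the lowest SR1848 embryo.

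For SR1848 against DMSO the log2 fold change of Pabpc1l was 2.16 ± 0.42 (SE, adjusted p = 3.46e-06), and 3.51 (adjusted p = 3.01e-14) without DMSO 13 of experiment 1. For NR5A2 mRNA against SR1848 it was −1.79 ± 0.30 (SE, adjusted p = 5.52e-07), with 66 of 67 embryos below the SR1848 median. NR5A2 mRNA against DMSO gave 0.38 ± 0.37 (SE, adjusted p = 0.377) and 1.74 (adjusted p = 1.33e-05) without that library, so whether it passed turned on 1 low library. Within experiments 1 and 2, SR1848 against DMSO gave 1.72 and 2.38, and NR5A2 mRNA against SR1848 −1.63 (adjusted p = 0.0407) and −1.88 (adjusted p = 4.21e-07).

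Pabpn1l encodes an oocyte relative of the nuclear poly(A)-binding protein, which in mouse works with BTG4 in maternal mRNA decay (ENSMUSG00000069867, chromosome 8, 122619471 to 122622739, minus strand). Pabpn1l had 0, 9.87 and 32.2 CPM (lowest, median and highest) in NR5A2 mRNA embryos, 2.40, 13.7 and 97.7 CPM in SR1848 embryos and 0, 6.47 and 154 CPM in DMSO embryos. The groups overlapped in every set of libraries, and without the 23 25 of 40 SR1848 embryos lay above the highest DMSO embryo (10.8 CPM). DMSO 16 of experiment 1, a low library with 31.8% of its counts from mitochondrial mRNAs, held 45.8% of the summed CPM in DMSO embryos. For Pabpn1l the log2 fold change was 0.92 ± 0.32 (SE, adjusted p = 0.00855) for SR1848 against DMSO and 1.42 (adjusted p = 4.66e-05) without that library. It was −0.65 ± 0.25 (SE, adjusted p = 0.0301) for NR5A2 mRNA against SR1848, −0.52 (adjusted p = 0.104) without the 16, and 0.27 ± 0.29 (SE, adjusted p = 0.434) for NR5A2 mRNA against DMSO, which became 0.74 (adjusted p = 0.0229) without DMSO 16. Experiment 1 alone gave 1.48 for SR1848 against DMSO and experiment 2 alone, as labelled, 0.10 (adjusted p = 0.897). In the fit with a group by experiment term, the experiment 2 value was 0.095 as labelled and 1.56 without the 16, which leaves 2 DMSO embryos there.

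Ybx2 and Cpeb1 act on stored mRNA. Ybx2 encodes a germ-cell Y-box protein (MSY2) that binds and stabilises oocyte mRNA in a translationally silent form (ENSMUSG00000018554, chromosome 11, 69935796 to 69941605, plus strand). Ybx2 had 0, 42.9 and 113 CPM (lowest, median and highest) in NR5A2 mRNA embryos, 0, 56.8 and 153 CPM in SR1848 embryos and 0, 9.26 and 47.8 CPM in DMSO embryos. Without the 23 every SR1848 embryo (30.1 to 153 CPM) lay above every DMSO embryo (1.51 to 20.6 CPM), and 52 of 56 NR5A2 mRNA embryos lay above the highest DMSO embryo. The log2 fold change was 2.07 ± 0.30 (SE, adjusted p = 2.51e-09) for SR1848 against DMSO and 1.60 ± 0.28 (SE, adjusted p = 5.24e-06) for NR5A2 mRNA against DMSO. NR5A2 mRNA against SR1848 gave −0.48 ± 0.23 (SE, adjusted p = 0.0819), with 51 of 67 embryos below the SR1848 median. Experiments 1 and 2 alone gave 3.18 and 1.02 for SR1848 against DMSO, and 2.97 in experiment 2 without the 16.

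Cpeb1 encodes the protein that binds the cytoplasmic polyadenylation element (ENSMUSG00000025586, chromosome 7, 81347026 to 81455465, minus strand). Cpeb1 had 0, 129 and 226 CPM (lowest, median and highest) in NR5A2 mRNA embryos, 1.63, 181 and 263 CPM in SR1848 embryos and 0, 58.9 and 179 CPM in DMSO embryos. Without the 23, 39 of 40 SR1848 embryos and 47 of 56 NR5A2 mRNA embryos lay above the highest DMSO embryo (107 CPM). For Cpeb1 the log2 fold change was 1.31 ± 0.25 (SE, adjusted p = 3.26e-06) for SR1848 against DMSO and 0.84 ± 0.23 (SE, adjusted p = 0.00163) for NR5A2 mRNA against DMSO. It was −0.47 ± 0.20 (SE, adjusted p = 0.0432) for NR5A2 mRNA against SR1848 and −0.39 (adjusted p = 0.103) without the 16. Experiment 1 alone gave 1.80 for SR1848 against DMSO and experiment 2 alone 0.67 (adjusted p = 0.0849), and 1.78 (adjusted p = 0.0173) without the 16.

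Dcp1a encodes a cofactor of the decapping enzyme DCP2 and is the member of the later step, removal of the cap (ENSMUSG00000021962, chromosome 14, 30479535 to 30527063, plus strand). Dcp1a had 0, 280.0 and 627 CPM (lowest, median and highest) in NR5A2 mRNA embryos, 14.6, 667 and 939 CPM in SR1848 embryos and 0, 143 and 512 CPM in DMSO embryos. All 67 NR5A2 mRNA embryos lay below the SR1848 median. Without the 23 all 40 SR1848 embryos (426 to 939 CPM) lay above all DMSO embryos (68.8 to 241 CPM), and 48 of 56 NR5A2 mRNA embryos lay below the lowest SR1848 embryo. The log2 fold change was 2.02 ± 0.28 (SE, adjusted p = 6.41e-10) for SR1848 against DMSO, −1.26 ± 0.21 (SE, adjusted p = 3.94e-07) for NR5A2 mRNA against SR1848 and 0.76 ± 0.25 (SE, adjusted p = 0.00798) for NR5A2 mRNA against DMSO. In experiments 1 and 2 alone, SR1848 against DMSO gave 2.74 and 1.21, and NR5A2 mRNA against SR1848 −1.29 (adjusted p = 0.00870) and −1.22 (adjusted p = 4.52e-06). Dcp1a and Pabpc1l were thus the members lower with NR5A2 mRNA in each experiment alone.

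In the 16 libraries the labelled groups stood the other way round from the rest. The 8 labelled SR1848 with NR5A2 mRNA, with little Nr5a2, had medians of 377 CPM of Btg4, 484 of Cnot8, 6.95 of Pabpc1l, 9.31 of Ybx2 and 113 of Dcp1a. The 8 labelled DMSO, most with much Nr5a2, had 1413 CPM of Btg4, 186 of Cnot8, 28.7 of Pabpc1l, 33.9 of Ybx2 and 296 of Dcp1a. For comparison, medians without the 23 were 1716, 243, 38.3, 45.0 and 301 CPM of these genes in NR5A2 mRNA embryos and 369, 553, 4.75, 7.70 and 126 CPM in DMSO embryos. These are values and not a test, and the libraries stayed under their labels.

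Within Cnot7 the groups also differed in which transcript the counts were assigned to. Cnot7-203 starts at an upstream exon (chromosome 8, 40515704 to 40515847, 5′ UTR) and Cnot7-201 at an exon nearer the coding region (40511540 to 40511754, 5′ UTR), with start sites 4093 bases apart. They share the start codon, the stop codon and 5 of 7 exons exactly, and their 3′ ends lie 2 bases apart, so both carry the poly(A) signal printed above. Cnot7-203 made up 55.3% ± 17.5 (SD, n = 66) of Cnot7 counts in NR5A2 mRNA embryos, 80.7% ± 14.7 (SD, n = 41) in SR1848 embryos and 49.8% ± 11.2 (SD, n = 27) in DMSO embryos, among libraries with at least 20 counts of the gene. Without the 23 the shares lay between 29.2% and 87.4% in NR5A2 mRNA embryos, 65.9% and 94.2% in SR1848 embryos and 29.3% and 70.5% in DMSO embryos, so the ranges of SR1848 and DMSO embryos overlapped at their ends. SR1848 against DMSO differed by 29.7 percentage points (permutation p = 1e-05, adjusted p = 3.75e-05) in a 2-sided permutation test within experiment with 100000 resamples, adjusted over 15 tests, where 1e-05 is the smallest p it can give. NR5A2 mRNA against SR1848 differed by −25.4 percentage points (permutation p = 1e-05, adjusted p = 3.75e-05), and NR5A2 mRNA against DMSO by 5.85 percentage points (permutation p = 0.124, adjusted p = 0.207), which was 12.7 percentage points (permutation p = 0.00167, adjusted p = 0.00417) without the 23. In levels without the 23, Cnot7-203 had medians of 629 CPM in NR5A2 mRNA embryos, 1203 CPM in SR1848 embryos and 179.7 CPM in DMSO embryos, and Cnot7-201 had 312, 151 and 134 CPM. Kallisto divides reads that both transcripts could give, so a share is an estimate, and the pair of transcripts codes for 1 protein.

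**Figure D3:**
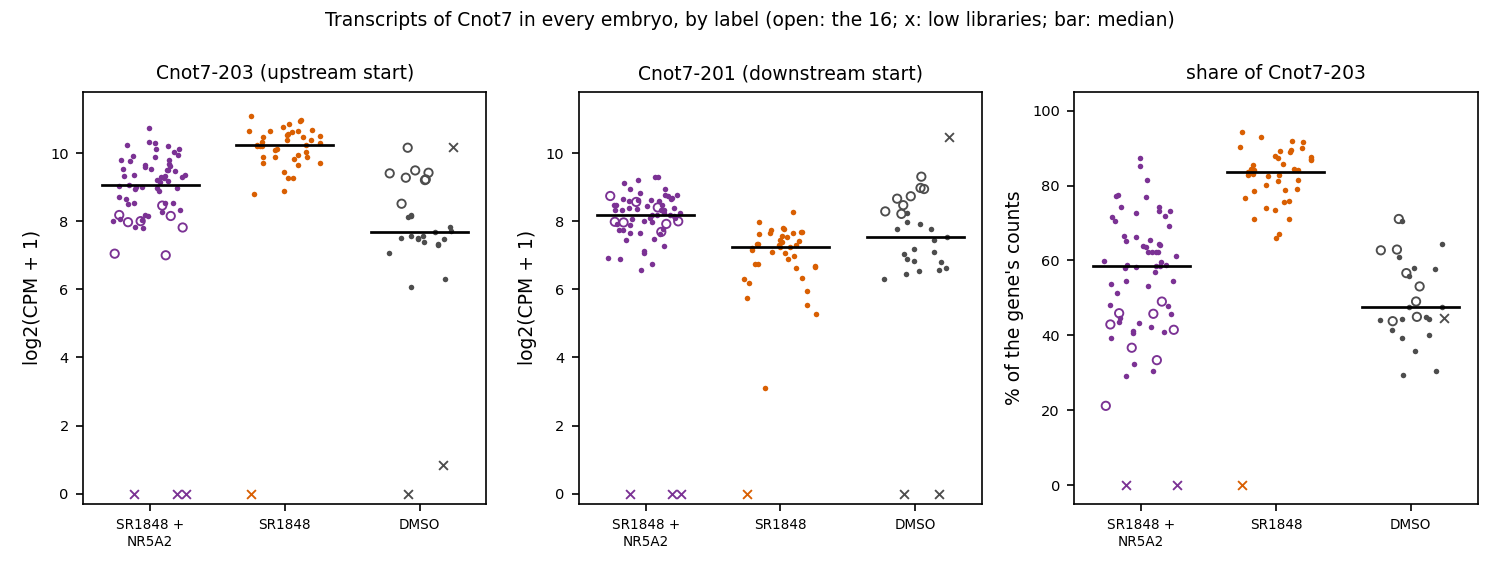
Levels of Cnot7-203 and Cnot7-201 as log2(CPM + 1) and the share of Cnot7-203 among Cnot7 counts in percent, for embryos labelled SR1848 with NR5A2 mRNA, SR1848 and DMSO. Each point is an embryo and each bar a median; the share averages 55.3%, 80.7% and 49.8% in the 3 groups.

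Of 4 other members with several abundant transcripts, Dcp1a, Cnot6l and, as labelled, Cpeb1 shifted as well. Dcp1a-201 made up 50.8% ± 11.2 (SD, n = 64) of Dcp1a counts in NR5A2 mRNA embryos, 48.7% ± 6.89 (SD, n = 40) in SR1848 embryos and 71.2% ± 16.0 (SD, n = 26) in DMSO embryos. SR1848 against DMSO differed by −22.0 percentage points (permutation p = 1e-05, adjusted p = 3.75e-05), NR5A2 mRNA against DMSO by −19.9 percentage points (permutation p = 1e-05, adjusted p = 3.75e-05) and NR5A2 mRNA against SR1848 by 2.13 percentage points (permutation p = 0.272, adjusted p = 0.371). The rest of the counts went to entries that include Dcp1a-214, a processed transcript annotated as noncoding, whose share averaged 14.8%, 18.4% and 5.43% in NR5A2 mRNA, SR1848 and DMSO embryos. Cnot6l-210 made up 41.2% ± 11.0 (SD, n = 65) of Cnot6l counts in NR5A2 mRNA embryos, 34.1% ± 7.02 (SD, n = 40) in SR1848 embryos and 43.1% ± 13.4 (SD, n = 27) in DMSO embryos. It differed by −9.84 percentage points (permutation p = 0.000320, adjusted p = 0.000875) for SR1848 against DMSO and by 7.09 percentage points (permutation p = 0.000350, adjusted p = 0.000875) for NR5A2 mRNA against SR1848. For Cpeb1-201 SR1848 against DMSO gave −10.0 percentage points (permutation p = 0.00479, adjusted p = 0.0103), with an adjusted p of 0.0767 without the 16, and for Ybx2-205 no comparison passed. Btg4 and Cnot8 were read almost wholly as Btg4-201 (98.0% of counts) and Cnot8-201 (99.0%), and Zfp36l2 has 1 transcript.

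Ratios within a library do not depend on how libraries are scaled, so each of 8 genes was set against a relative, chosen after values had been seen. The log2 ratio of counts (0.5 added to each) was compared by 2-sided permutation within experiment over embryos, with adjustment over 24 tests. The difference given is the one tested within experiment, which need not equal the gap between the medians of all embryos. Pabpc1l to Pabpc1, the cytoplasmic poly(A)-binding protein of somatic cells, had a median log2 ratio of 0.41 in NR5A2 mRNA embryos, 3.02 in SR1848 embryos and −4.40 in DMSO embryos. The difference was 5.76 (adjusted permutation p = 2.67e-05) for SR1848 against DMSO, with 41 of 41 embryos above the DMSO median, −2.92 (adjusted permutation p = 2.67e-05) for NR5A2 mRNA against SR1848 and 2.94 (adjusted permutation p = 4.36e-05) for NR5A2 mRNA against DMSO. Pabpc1 itself had a log2 fold change of −2.45 (adjusted p = 7.12e-09) for SR1848 against DMSO, so both sides of the ratio moved. Pabpn1l to Pabpn1, the nuclear poly(A)-binding protein, had medians of −2.29 in NR5A2 mRNA embryos, −1.25 in SR1848 embryos and −5.79 in DMSO embryos, and differed by 3.66 (adjusted permutation p = 2.67e-05) for SR1848 against DMSO and by −1.76 (adjusted permutation p = 0.00240) for NR5A2 mRNA against SR1848. Ybx2 to Ybx1, the Y-box protein found in most cells, had medians of −1.11, −0.50 and −3.36 in NR5A2 mRNA, SR1848 and DMSO embryos, and differed by 2.51 (adjusted permutation p = 2.67e-05) for SR1848 against DMSO. Pabpn1 itself had a log2 fold change of −2.43 (adjusted p = 1.66e-05 by edgeR) for SR1848 against DMSO. In these 3 pairs the oocyte-type mRNA gained on its relative in SR1848 embryos whatever the scaling. A lower relative gives such a gain too, so the ratios do not show that the oocyte-type mRNA rose. Without the 16, SR1848 against DMSO differed by 7.77, 5.56 and 3.11 in the 3 pairs in turn (adjusted permutation p = 2e-05 each).

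Within CCR4-NOT, the Cnot7 to Cnot8 ratio had medians of 2.28 in NR5A2 mRNA embryos, 2.37 in SR1848 embryos and −0.28 in DMSO embryos on the log2 scale. The tested difference was 1.42 (adjusted permutation p = 0.00202) for SR1848 against DMSO, with 41 of 41 embryos above the DMSO median. It was 1.24 (adjusted permutation p = 0.0104) for NR5A2 mRNA against DMSO. Without the 16 these were 2.50 and 2.38 (adjusted permutation p = 2e-05 each), and without the 23 2.85 and 2.51 (adjusted permutation p = 1.6e-05 each). NR5A2 mRNA against SR1848 gave −0.27 (adjusted permutation p = 0.304). Cnot6l to Cnot6, the paralogous CCR4-type deadenylase, differed by 1.03 (adjusted permutation p = 0.000240) for SR1848 against DMSO and by −0.72 (adjusted permutation p = 2.67e-05) for NR5A2 mRNA against SR1848. Without the 16 these were 1.27 (adjusted permutation p = 0.00128) and −0.65 (adjusted permutation p = 2e-05). Btg4 to Btg1, another BTG/TOB adaptor, had medians of 6.31, 10.20 and 4.90 in NR5A2 mRNA, SR1848 and DMSO embryos, and differed by 6.11 (adjusted permutation p = 2.67e-05) for SR1848 against DMSO. Without the 16 this difference was 6.92 (adjusted permutation p = 2e-05). Zfp36l2 to Zfp36l1 differed by 2.66 (adjusted permutation p = 4.36e-05) for SR1848 against DMSO and −3.37 (adjusted permutation p = 2.67e-05) for NR5A2 mRNA against SR1848. Without the 16 the first was 1.70 (adjusted permutation p = 0.0253), and without the 23 it was 1.47 (adjusted permutation p = 0.0408). NR5A2 mRNA against DMSO gave −0.59 (adjusted permutation p = 0.238) as labelled and −1.70 (adjusted permutation p = 0.00567) without the 23. Dcp1a to Dcp1b, the other decapping cofactor, was the pair that did not pass for SR1848 against DMSO, −0.052 (adjusted permutation p = 0.936), and without the 23 the value was −1.33 (adjusted permutation p = 0.0211). Dcp1b and Zfp36l1 had group medians of at most 5.38 CPM, so their ratios rest on few counts. Btg1 was also low in SR1848 embryos, where the Btg4 to Btg1 median was 10.20 with a Btg4 median of 2553 CPM. The sizes of the Btg4 to Btg1 differences, 6.11 and 6.92, therefore rest on few Btg1 counts and in part on the value added to each count.

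**Figure D4:**
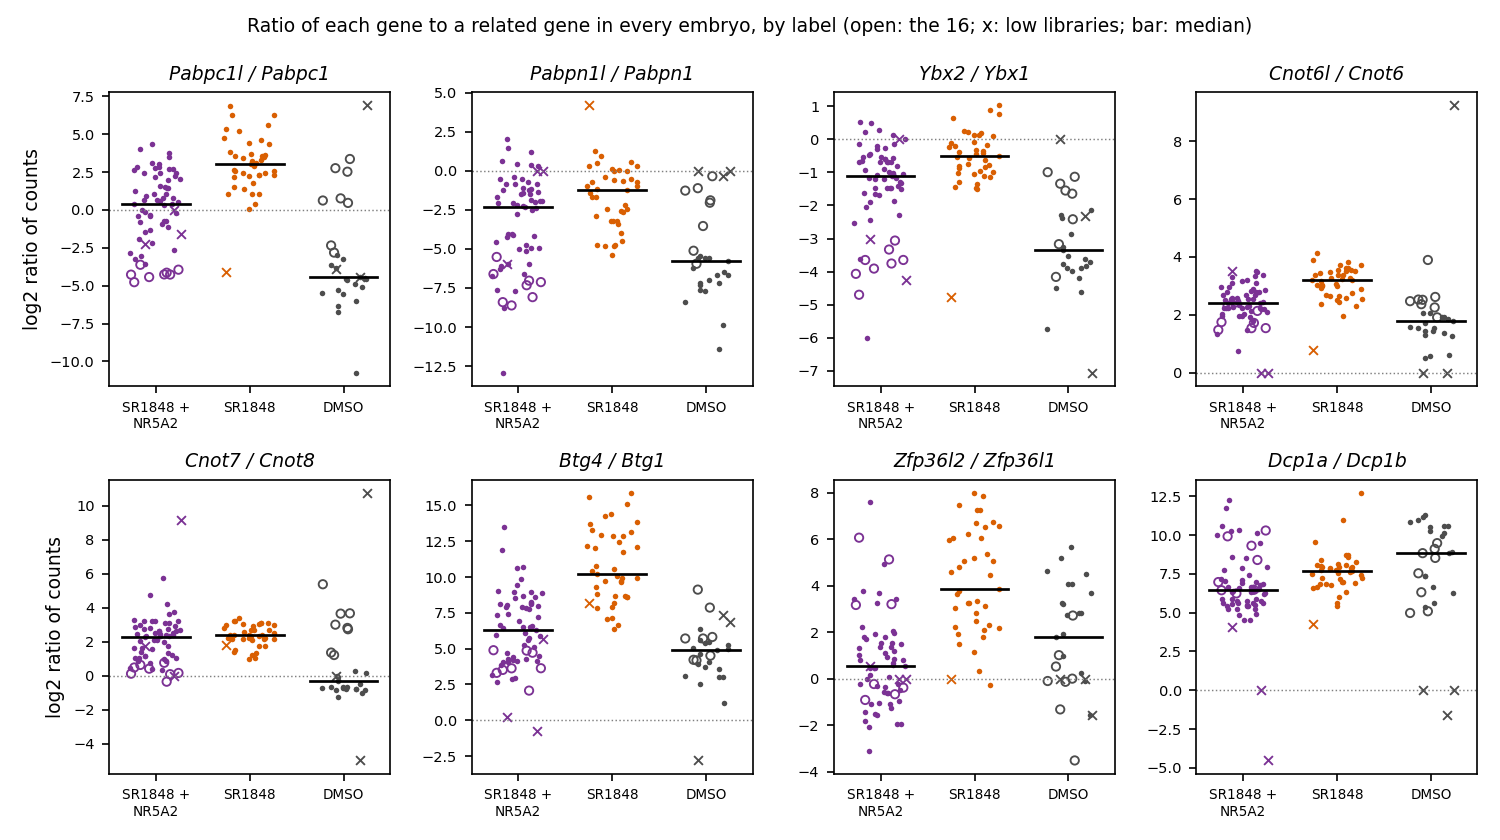
Log2 ratios within each library of 8 genes to a relative (0.5 added to each count), for embryos labelled SR1848 with NR5A2 mRNA, SR1848 and DMSO. Points are embryos and bars medians; the Pabpc1l to Pabpc1 medians are 0.41, 3.02 and −4.40.

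Other genes of the pathway were counted in the same way. Of 123 other tested genes in 8 lists of mRNA decay and poly(A) control, 36 were higher and 57 lower in SR1848 embryos than in DMSO embryos, with a median log2 fold change of −0.25, and scaled to oocyte transcripts 4 were higher and 100 lower. Over all genes the shares were 33.1% higher and 36% lower, and 4.85% and 69.2% when scaled to oocyte transcripts. In NR5A2 mRNA embryos 37 were higher and 23 lower than in SR1848 embryos, with a median of 0.10, and scaled to oocyte transcripts 87 were higher and 3 lower, against 29.5% and 12.9% of all genes, and 63.3% and 2.7% when scaled. Without the 16 libraries 25 of 122 were higher and 27 lower, with a median of −0.086, against 3252 and 1849 of 14893 genes. Without the 37, 22 of 121 were higher and 41 lower, with a median of −0.094, against 3588 and 2659 of 14717 genes. The labelled shares are near the background and are no result about the pathway. Which direction held more of these genes in NR5A2 mRNA against SR1848 changed with the libraries left out, and this was not tested. The genes named from each list are those with the smallest p for SR1848 against DMSO, so their values there are a description of the lists' extremes. NR5A2 mRNA against SR1848 uses the same SR1848 embryos, so a value of opposite sign there is not independent of this choice. Such pairs of signs are therefore no result about the named genes. Without the 37, 4 of the 16 named genes no longer passed in NR5A2 mRNA against SR1848 by edgeR, or turned: Papola at 0.11 (adjusted p = 0.425), Ythdf2 at 0.18 (adjusted p = 0.279), Pabpc1 at 0.16 (adjusted p = 0.592) and Cstf1 at −0.20 (adjusted p = 0.637).

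Among the other CCR4-NOT subunits and BTG/TOB adaptors, 5 of 13 were higher and 6 lower in SR1848 against DMSO, and 4 of 13 were higher and 3 lower in NR5A2 mRNA against SR1848. Cnot4, a ubiquitin ligase that associates with the complex, had log2 fold changes of 1.82 and −1.22 in these comparisons, and Btg1 −2.51 and 2.66. Of the other deadenylases and tail-adding enzymes, 5 of 17 were higher and 7 lower in the first comparison. Pan2, the catalytic subunit of the PAN2-PAN3 deadenylase, had 1.86 and −0.96, and Papola, the main nuclear poly(A) polymerase, −2.44 and 0.87. Of decapping and 5′ decay genes beside Dcp1a, 6 of 15 were higher and 5 lower: Patl1, which links deadenylation to decapping, had 1.52 and −0.73, and Xrn1, the 5′ to 3′ exonuclease, −0.76 and 0.81.

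Of the RNA-binding recruiters beside Zfp36l2, 4 of 18 were higher and 9 lower in SR1848 against DMSO. Ythdf2, a reader of N6-methyladenosine that brings in CCR4-NOT, had −3.52 there and 1.36 in NR5A2 mRNA against SR1848, and Samd4b, a Smaug-type RNA-binding protein, 1.22 and −0.30 (adjusted p = 0.178). Of oocyte storage and translation factors, 9 of 19 were higher and 4 lower. Dazl, a germ-cell activator of translation, had 2.12 and −0.66, and Ddx6, a helicase of stored and repressed mRNA, −2.16 and 1.20. Of the other poly(A)-binding proteins and their partners, 2 of 6 were higher and 2 lower: Paip1, a translational partner of PABPC1, had 1.44 and −0.31 (adjusted p = 0.166), and Pabpc1 −2.45 and 1.33.

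Of cleavage and polyadenylation genes 3 of 18 were higher and 12 lower in SR1848 embryos than in DMSO embryos, with a median of −1.55. Cstf1, a subunit of the cleavage stimulation factor, had −4.19 there and 1.93 in NR5A2 mRNA against SR1848, while Cpsf4l, a relative of the cleavage factor subunit Cpsf4, had 2.21 and −1.46. Of exosome and Ski complex genes 2 of 17 were higher and 12 lower, with a median of −1.82. The exosome nuclease Dis3 had −2.83 and 1.25, and the ring subunit Exosc4 −2.86 and 1.39. In NR5A2 mRNA against SR1848, 7 of 18 were higher and 2 lower for cleavage and polyadenylation and 8 of 17 were higher and 2 lower for the exosome; without the 16, 3 of 18 were higher and 4 lower for cleavage and polyadenylation. Counts are descriptions of lists chosen with earlier results of these data known, the background of 33.1% higher and 36% lower holds for each list in SR1848 against DMSO, and neither a list as a set nor a difference between lists was tested.

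**Figure D5:**
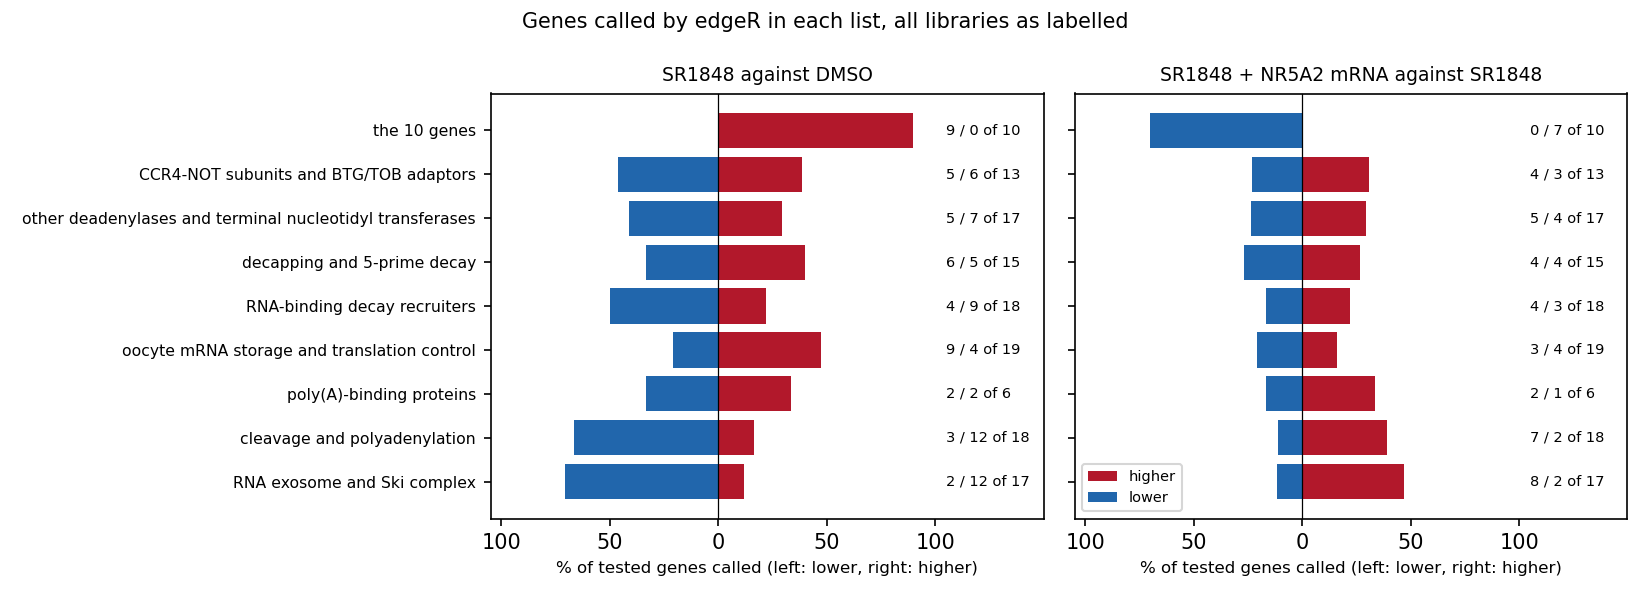
Share of tested genes called higher or lower by edgeR, in percent, in the 10 genes and 8 other lists of the pathway, for SR1848 against DMSO and for NR5A2 mRNA against SR1848, all libraries as labelled. Counts stand at the right; 9 of the 10 genes are called higher in the first comparison and 7 lower in the second, against 3 higher and 2 lower, and 2 higher and 3 lower, when libraries are scaled to oocyte transcripts.

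The embryos of a group also varied, and some of the 10 varied together. With the mean of each group and experiment taken off log2 CPM, over 114 libraries (without the 23), Pearson correlations between the 10 ran from −0.457 (Cnot7 and Zfp36l2) to 0.754 (Btg4 and Cnot7), with a median of 0.134 and 32 of 45 pairs above 0. The values of a library share its depth and scaling, so these are descriptions with no test. Among 3745 genes whose mean log2 CPM reached 5, those most like Btg4 were Med30 (0.853), E330034G19Rik (0.839) and Obox1 (0.822). Most like Cnot7 were Ap3m1 (0.762), Dab2 (0.761) and Rab11a (0.761), and most like Pabpc1l Eef2k (0.799), Immp1l (0.764) and Atp6v1g1 (0.754). Ybx2 varied most like Tpgs2 (0.784), Mapk3 (0.762) and Drosha (0.758), Cnot6l like Stau2 (0.656), Rab2a (0.652) and Abi1 (0.649) and Dcp1a like Dlgap4 (0.648) and Pld1 (0.628). For Cnot8 they were Ctps (0.666), Dut (0.656) and Ppp1r15a (0.635), for Zfp36l2 Cdkn1a (0.657), Bambi (0.634) and Atp5g1 (0.616) and for Pabpn1l Nanos2 (0.630), Dnmt3l (0.621) and Abr (0.618). The closest to Cpeb1 were weaker: Med15 (0.435), Snx9 (0.423) and Togaram1 (0.408).

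The authors' deposited table compares SR1848 with NR5A2 mRNA and SR1848 by transcript, and its direction was read from the counts: 94.3% of 14803 transcripts past its threshold have the sign of NR5A2 mRNA over SR1848. In the authors' deposited table the log2 fold change was −0.81 for Btg4-201, −1.28 for Dcp1a-201, −1.87 for Pabpc1l-201 and −0.60 for Ybx2-205. The authors' deposited table gives Cnot7-203 as −1.01 and Cnot7-201 as 0.88, so the gene's transcripts differ in sign there, as their levels do above. The authors' deposited table lists Pabpn1l-201 as lower (adjusted p = 0.0371) and Cnot8-201 (adjusted p = 0.0597) and Zfp36l2-201 (adjusted p = 0.463) as neither. Beside all 3 the authors' deposited table gives the same SE of 0.00144 and log2 fold changes of −1.13e-05, −1.55e-05 and −4.03e-06, so no size is read from them.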

How the data were processed

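The submitters' processing notes list bcl2fastq, Trim Galore 0.6.2, kallisto 0.46.1, R 3.5.1, DESeq2 1.32.0 and the builds mm10 and hg19, and what hg19 served for is not stated in the sources used here. The deposited counts are kallisto's expected counts for 119358 transcript entries, of which 26.3% of values are not whole (tolerance 1e-9). The authors' deposited table, per the file headers, gives a mean normalized signal, a log2 fold change, its standard error and p-values per transcript. Its column names and those of the counts were matched to samples by prefix, number and experiment, with C88 read as SR1848 with NR5A2 mRNA and ComS as SR1848.

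Entries were paired with genes through GENCODE M21 (116682) and the authors' table (892 more); 1779 entries stayed unpaired (0.656% of counts), and 5 entries with no transcript identifier (0.158%) stayed out of library sizes. Counts were summed by gene and rounded. CPM uses each library's total over genes, and TPM annotated lengths without correction for fragment length. edgeR 4.0.16 (quasi-likelihood, TMM, filterByExpr) in R 4.3.3 was fitted over all 3 groups with group and experiment as terms, and tested on simulated data. Alternatives were DESeq2 1.42.0, other scalings, no filter, each experiment alone, a replicate block, and sets of libraries left out. Ratios and shares of transcripts were compared with scipy 1.17.1 and numpy 2.4.6. Replicate numbers did not pair samples: the median correlation of same-numbered deviations ran from −0.527 to 0.0747 over comparisons and experiments. Named pathway genes are the 2 of each of 8 lists with the smallest p in SR1848 against DMSO and a mean of at least 3 log2 CPM, and for each member the 3 most like it, apart from a gene that is not reported here.

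The members, lists and tests were chosen with earlier results of these data known. The labels do not say whether embryos share parents, and a p therefore covers only differences between embryos. The protocol keeps no strand and has no molecular identifiers, and near-identical copies share reads.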

Additional observations from a re-analysis of the deposited data

Results flagged for a closer look

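For SR1848 against DMSO, 5 of the 10 genes had a log2 fold change that differed between the experiments by edgeR's group by experiment term, all smaller in experiment 2. The values were Btg4 1.25 in experiment 2 and 2.82 in experiment 1 (difference −1.57 ± 0.55 SE, adjusted p = 0.0222) and Ybx2 1.01 in experiment 2 and 3.19 in experiment 1 (difference −2.18 ± 0.51 SE, adjusted p = 0.000500). The others were Zfp36l2 0.42 in experiment 2 and 2.28 in experiment 1 (difference −1.86 ± 0.61 SE, adjusted p = 0.0138), Pabpn1l 0.095 in experiment 2 and 1.63 in experiment 1 (difference −1.54 ± 0.63 SE, adjusted p = 0.0498) and Dcp1a 1.20 in experiment 2 and 2.74 in experiment 1 (difference −1.53 ± 0.52 SE, adjusted p = 0.0169). Over all genes 30.3% passed this test. Without the 16 libraries 0 of the 10 passed, and 27 genes did, and without the 23 0 of the 10 passed, with 2 DMSO embryos of experiment 2 left in either case; with only the 7 low libraries left out, all 10 passed (41.7%). For NR5A2 mRNA against SR1848 none of the 10 passed as labelled (background 4.58%).

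GFP, which the tests of genes do not use, had a median of 2514 CPM in the 8 libraries 1 to 8 of experiment 2 labelled DMSO, against a median of 0.201 CPM in DMSO embryos of experiment 1. In the 8 libraries of experiment 2 labelled SR1848 with NR5A2 mRNA 1 to 8 it was at most 0.456 CPM.

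The highest Btg4 level among the 10 DMSO libraries of experiment 2, 3538 CPM in DMSO 1, lay apart from the other 9. Such a gap is flagged by chance in about 1 of 20 groups.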

How the results depend on the processing

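As labelled, 4804 genes were higher and 5218 lower in SR1848 against DMSO, 4282 and 1876 in NR5A2 mRNA against SR1848, and 4472 and 3736 in NR5A2 mRNA against DMSO. Of 630 values of the 10 genes under the alternatives, 477 kept their direction and side of the threshold, 51 passed it newly, 52 no longer passed and 50 changed sign; for the 16 named pathway genes the numbers were 861, 8, 84 and 55 of 1008, and for ratios and transcript shares 66, 8, 2 and 2 of 78. The settings that join changes of scaling or experiment with libraries left out, the leaving out of the 37, that of DMSO 6, 13 or 16 of experiment 1 in turn, and all settings of ratios and shares were added after the data had been seen. Where a value moved, the cause was not tested. As background, experiment 1 alone called 4317 of 13613 genes lower in SR1848 against DMSO and 4044 in NR5A2 mRNA against DMSO. Scaled to mitochondrial mRNAs with all libraries, 4748 of 14507 genes were higher and 5441 lower in SR1848 against DMSO. In NR5A2 mRNA against DMSO that scaling gave 2148 higher and 5236 lower, and without the 23 it gave 7067 of 15107 lower. In experiment 2 alone, SR1848 against DMSO gave 3859 genes called, 5 of the 10 higher, 39 pathway genes called and values of opposite sign for Cnot8 0.33, while NR5A2 mRNA against SR1848 gave values of opposite sign for Paip1 0.14, and NR5A2 mRNA against DMSO gave 0 genes called, 0 of the 10 higher, 0 pathway genes called and values of opposite sign for Cnot7 −0.056, Cnot8 0.15, Zfp36l2 −0.23, Pabpn1l −0.23, Cpeb1 −0.047, Dcp1a −0.014. In experiment 1 alone, SR1848 against DMSO gave 1 of the 10 lower, while NR5A2 mRNA against SR1848 gave 2507 genes called, 2 of the 10 lower, 23 pathway genes called and values of opposite sign for Cnot8 0.090, Zfp36l2 0.61, Samd4b 0.031, and NR5A2 mRNA against DMSO gave 1 of the 10 lower and values of opposite sign for Xrn1 −0.0058. Scaled to oocyte transcripts, SR1848 against DMSO gave 3 of the 10 higher, 2 of the 10 lower and values of opposite sign for Cnot6l −0.22, Cnot7 −0.35, Zfp36l2 −0.0051, Pabpn1l −0.63, Cpeb1 −0.24, Cnot4 −0.012, Patl1 −0.27, Samd4b −0.23, Paip1 −4.54, while NR5A2 mRNA against SR1848 gave 9578 genes called, 2 of the 10 higher, 3 of the 10 lower and values of opposite sign for Cnot6l 0.10, Cnot7 0.26, Cnot8 0.87, Zfp36l2 0.70, Ybx2 0.14, Cpeb1 0.19, Patl1 0.037, Samd4b 0.39, Paip1 5.30, and NR5A2 mRNA against DMSO gave 1 of the 10 higher, 3 of the 10 lower and values of opposite sign for Cnot6l −0.12, Cnot7 −0.10, Pabpc1l −0.82, Pabpn1l −0.95, Cpeb1 −0.049, Dcp1a −0.17, Cnot4 −0.49, Btg1 −0.56, Pan2 −0.045, Patl1 −0.24, Xrn1 −0.70, Cpsf4l −0.28. Scaled to mitochondrial mRNAs with all libraries, of which the low ones hold few such counts, SR1848 against DMSO gave 5 of the 10 higher, 5 of the 10 lower and values of opposite sign for Btg4 −7.10, Cnot6l −10.01, Cnot7 −7.60, Pabpc1l −11.33, Paip1 −8.17, while NR5A2 mRNA against SR1848 gave values of opposite sign for Xrn1 −0.026, Paip1 7.82, and NR5A2 mRNA against DMSO gave 2 of the 10 higher, 5 of the 10 lower and values of opposite sign for Btg4 −7.79, Cnot6l −11.17, Cnot7 −7.75, Pabpc1l −13.58, Btg1 −0.86, Xrn1 −0.56, Paip1 −0.35. Scaled to oocyte transcripts without the 23, SR1848 against DMSO gave 4 of the 10 higher, 3 of the 10 lower and values of opposite sign for Cnot7 −0.23, Pabpn1l −0.057, Cpeb1 −0.34, Cnot4 −0.32, Patl1 −0.63, Samd4b −0.52, Paip1 −0.14, while NR5A2 mRNA against SR1848 gave 2 of the 10 lower and values of opposite sign for Cnot7 0.055, Cnot8 0.28, Zfp36l2 0.57, Pabpn1l 0.22, Ybx2 0.15, Cpeb1 0.15, Samd4b 0.33, Paip1 0.23, and NR5A2 mRNA against DMSO gave 4 of the 10 higher, 3 of the 10 lower and values of opposite sign for Cnot7 −0.17, Cpeb1 −0.19, Dcp1a −0.30, Cnot4 −1.05, Btg1 −1.26, Pan2 −0.30, Patl1 −0.80, Xrn1 −1.62, Samd4b −0.19, Cpsf4l −0.60. Of the 15107 genes tested there, 1040 were higher and 10918 lower in SR1848 against DMSO. The counts were 8615 and 478 in NR5A2 mRNA against SR1848, and 2015 and 9074 in NR5A2 mRNA against DMSO. Scaled to mitochondrial mRNAs without the 23, SR1848 against DMSO gave 1 of the 10 lower, while NR5A2 mRNA against SR1848 gave 9475 genes called and values of opposite sign for Papola −0.34, and NR5A2 mRNA against DMSO gave 1 of the 10 lower and values of opposite sign for Cnot4 −0.088, Btg1 −0.91, Xrn1 −1.15. Leaving out the 23, SR1848 against DMSO gave 1 of the 10 lower and 0 of the 10 differing between experiments, while NR5A2 mRNA against SR1848 gave values of opposite sign for Zfp36l2 0.0059, Ybx2-205 share −0.334, and NR5A2 mRNA against DMSO gave 1 of the 10 lower and values of opposite sign for Xrn1 −0.17. Leaving out the 16, SR1848 against DMSO gave 0 of the 10 differing between experiments, while NR5A2 mRNA against SR1848 gave 4 of the 10 lower and values of opposite sign for Ybx2-205 share −0.334, and NR5A2 mRNA against DMSO gave 1 of the 10 lower. Leaving out the 7 low libraries, SR1848 against DMSO gave 1 of the 10 lower and 10 of the 10 differing between experiments, while NR5A2 mRNA against DMSO gave 1 of the 10 lower and values of opposite sign for Xrn1 −0.018. Of 14674 genes, 5965 and 4290 were lower in these comparisons. In experiment 2 without the 16, SR1848 against DMSO gave 5992 genes called and 49 pathway genes called, while NR5A2 mRNA against SR1848 gave values of opposite sign for Paip1 0.33, and NR5A2 mRNA against DMSO gave 5296 genes called, 2 of the 10 higher, 48 pathway genes called and values of opposite sign for Xrn1 −0.43. Of 18665 genes, 2100 were higher in this last comparison. In experiment 1 without its low libraries, SR1848 against DMSO gave 1 of the 10 lower, while NR5A2 mRNA against SR1848 gave 4 of the 10 lower and values of opposite sign for Cnot8 0.070, Zfp36l2 0.63, Samd4b 0.13, and NR5A2 mRNA against DMSO gave 1 of the 10 lower and values of opposite sign for Xrn1 −0.11. Of 13488 genes, 5207, 1210 and 4622 were lower in these comparisons in turn. With relative log expression scaling, SR1848 against DMSO gave 1 of the 10 lower, while NR5A2 mRNA against DMSO gave 1 of the 10 lower and values of opposite sign for Btg1 −0.10, Xrn1 −0.17. Of 14507 genes, 5843 and 4526 were lower with that scaling. With total count scaling, NR5A2 mRNA against DMSO gave 1 of the 10 lower, against 4036 of 14507 genes, and values of opposite sign for Pabpc1l −0.091, Xrn1 −0.027. With no filter on low counts, which raises the genes tested to 31435, SR1848 against DMSO gave 15139 genes called, while NR5A2 mRNA against SR1848 gave 11720 genes called, and NR5A2 mRNA against DMSO gave values of opposite sign for Xrn1 −0.025. With DESeq2, SR1848 against DMSO gave 1 of the 10 lower, while NR5A2 mRNA against DMSO gave 1 of the 10 lower and values of opposite sign for Btg1 −0.11, Xrn1 −0.18. DESeq2 called 6157 and 4824 of 14507 genes lower in these comparisons. With the replicate block, NR5A2 mRNA against SR1848 gave 4 of the 10 lower, against 1116 of 14507 genes, while NR5A2 mRNA against DMSO gave values of opposite sign for Btg1 −0.41. Leaving out the 37, SR1848 against DMSO gave 1 of the 10 lower, while NR5A2 mRNA against SR1848 gave values of opposite sign for Cstf1 −0.20, and NR5A2 mRNA against DMSO gave 1 of the 10 lower and values of opposite sign for Btg1 −0.015, Xrn1 −0.35. Of 14717 genes, 5726 were lower in SR1848 against DMSO and 5380 in NR5A2 mRNA against DMSO. Leaving out DMSO 6, 13 or 16 of experiment 1 in turn gave 10097 to 10117 genes called in SR1848 against DMSO, 6333 to 6411 in NR5A2 mRNA against SR1848 and 8252 to 8312 in NR5A2 mRNA against DMSO, where 7 to 8 of the 10 were higher. Of the 14620 to 14628 genes tested, 4459 to 4505 were higher in that last comparison. The replicate block called 9499, 4493 and 5826 genes in the 3 comparisons in turn, and replicate numbers do not pair these embryos. Without the 16 libraries, 9439 of 10004 genes called as labelled and tested in both were called again with the same sign in SR1848 against DMSO, 4518 of 6142 in NR5A2 mRNA against SR1848 and 8174 of 8194 in NR5A2 mRNA against DMSO. With total count scaling Pabpn1l no longer passed in SR1848 against DMSO (0.64, adjusted p = 0.0625 by edgeR), which left 8 of the 10 higher, and with genes paired through the authors' table alone Cpeb1 no longer passed in NR5A2 mRNA against SR1848 (−0.46, adjusted p = 0.0529 by edgeR), which left 6 of the 10 lower. Zfp36l2 and Pabpn1l, with medians of 33 and 49 counts in a library, are the members whose values depth limits most. A cytoplasmic polyadenylation element was in 4 of the 10 genes in the last 200 bases too, and in 25.6% of all genes there.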
